A study of Mus musculus with 4 samples.

Results

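Glucose uptake, glycolysis and the transcriptional response to low oxygen were followed through 33 mouse genes in cells sorted from the lymphatic vessels that drain a tumour and labelled as endothelial. The genes were listed by name and each was read from the probe set with the highest mean signal over the 4 arrays, among probe sets annotated to that gene alone. Such a probe set was found for 31 of the 33, while Gpi1 and Eno1 had none, so their signals are not analysed here. A filter on dim genes, set at the median probe set (a signal of 25.3), kept 30 of them, among 11677 tested genes of 18193 with a single-gene probe set. The member that did not pass was Car9.

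The samples with VEGFD came from mice whose flank tumours were 293EBNA cells, a human embryonic kidney line, carrying an APEX vector with VEGFD (labelled Apex-VEGFD), a secreted growth factor for lymphatic and blood vessel endothelium. The Apex samples came from mice with 293EBNA tumours carrying the same vector without an insert. Tumours of both groups grew to 2000 mm3, the draining collecting lymphatics were found with a blue dye and dissected, and endothelial cells were isolated by magnetic sorting, with 2 biological replicates and 1 array each per group. The labels do not state mouse strain, age, sorting antibody or the promoter driving VEGFD, nor whether a replicate was 1 animal or a pool, so the spread between arrays may be partly technical. The extraction label names lymph node endothelium, where the other labels name collecting lymphatic endothelium.

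The endothelial label did not hold evenly across the arrays. The summed signal of 10 pan-endothelial markers was 370 and 211 in VEGFD replicates 1 and 2, against 326 and 3608 in Apex replicates 1 and 2. Emcn alone gave 2670 of the sum in Apex replicate 2. Tek and Kdr were the markers of this list that were not highest there. Tek had 86.1 and 20.3 in VEGFD arrays against 101 and 43.9 in Apex arrays, and Kdr 90.8 and 55.4 against 78.8 and 75.7. Pecam1, Cdh5, Tie1 and Erg exceeded the filter signal in Apex replicate 2 alone. The 6 measured of 7 lymphatic endothelial markers summed to 1467 and 1938 in VEGFD arrays, against 1056 and 2091 in Apex arrays. Most of that was Pdpn, with 1237 and 1715 against 963 and 1622. Flt4 had 161 and 145 against 42.6 and 247, and Lyve1 exceeded the filter signal in Apex replicate 2 alone. Prox1, the transcription factor of lymphatic identity, was at most 11.6 on any array. The 7 fibroblast markers summed to 16217 and 15835 in VEGFD arrays and to 17995 and 16479 in Apex arrays, with Col1a2 and Col3a1 as the largest parts. The sum was not even for each marker: Dpt had 204 and 168 in VEGFD arrays, against 2725 and 2407 in Apex arrays. Of the 6 tested fibroblast markers, the other 5 overlapped between groups. The adipocyte markers summed to 1114 and 1070 in VEGFD arrays against 1801 and 4236 in Apex arrays. Nearly all of that was Fabp4, with 1098 and 1047 against 1741 and 4073, while Cidec and Lep lay below the filter signal throughout. The leukocyte markers summed to 187 and 123 against 143 and 135. The samples are therefore called by their tumour labels, not as pure endothelium. In such bulk samples, fewer cells of a type and less RNA per cell cannot be told apart.

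Glycolysis converts glucose to pyruvate and yields energy without oxygen, and lactate dehydrogenase and a lactate exporter dispose of the product. Endothelial cells are known to take much of their energy from this route. When oxygen is scarce, the alpha subunits of the hypoxia-inducible factors (HIF) escape the prolyl hydroxylases that mark them for destruction, and they switch on glycolytic genes together with genes that curb mitochondrial work, growth and oxygen use. The hydroxylase genes Egln1 and Egln3 are themselves targets and damp the response.

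HIF binds DNA at a short core, ACGTG or GCGTG. These letters were searched on both strands of the 250 bases before each start in RefSeq promoters of GRCm38.p6, so that CACGTG counts as overlapping matches on the 2 strands. Windows were matched by symbol for 30 of the 33 genes (not for Slc2a3, Ndrg1 and Epas1), and a gene with several starts was counted when any window held a match. A match was found for 10 of 10 HIF targets with a window, Car9 among them, 14 of 17 glycolytic enzymes, 2 of 2 transporters and the 1 HIF subunit with a window. The share was 61.2% of the 9449 tested genes with a window and 41.5% of 27025 genes in all. A match is a string of letters and was not tested for binding. The 6 windows below belong to Slc2a1, which had the smallest p of the members, to 4 HIF targets whose values are given further on, and to Ldha, a glycolytic gene with several matches. Capitals mark the core letters on either strand, and each window is written 5′ to 3′ on the strand of its gene. They lie at chr4:119108495-119108744 (plus strand), chr2:71872974-71873223 (plus strand), chr7:138909507-138909756 (minus strand), chr8:45999851-46000100 (minus strand), chr10:59951771-59952020 (minus strand) and chr7:46845554-46845803 (plus strand), in the order printed.
Slc2a1: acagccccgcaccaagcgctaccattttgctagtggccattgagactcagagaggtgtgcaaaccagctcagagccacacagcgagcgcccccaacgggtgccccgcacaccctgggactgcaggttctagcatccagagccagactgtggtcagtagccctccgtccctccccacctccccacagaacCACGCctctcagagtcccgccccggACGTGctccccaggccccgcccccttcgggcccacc
Pdk1: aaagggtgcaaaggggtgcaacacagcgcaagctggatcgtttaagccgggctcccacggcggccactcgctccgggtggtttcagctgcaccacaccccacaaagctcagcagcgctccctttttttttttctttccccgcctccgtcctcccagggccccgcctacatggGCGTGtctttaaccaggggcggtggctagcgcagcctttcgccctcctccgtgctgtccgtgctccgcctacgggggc
Bnip3: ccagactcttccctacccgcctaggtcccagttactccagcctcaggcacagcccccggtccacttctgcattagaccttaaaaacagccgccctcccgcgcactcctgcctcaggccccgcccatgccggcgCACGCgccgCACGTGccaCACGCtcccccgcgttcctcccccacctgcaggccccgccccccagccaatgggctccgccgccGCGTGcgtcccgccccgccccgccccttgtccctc
Ankrd37: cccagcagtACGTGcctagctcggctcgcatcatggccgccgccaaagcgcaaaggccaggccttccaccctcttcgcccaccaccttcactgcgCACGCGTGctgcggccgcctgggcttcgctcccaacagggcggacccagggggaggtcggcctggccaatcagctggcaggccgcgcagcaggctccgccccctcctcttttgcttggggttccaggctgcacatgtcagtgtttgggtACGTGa
Ddit4: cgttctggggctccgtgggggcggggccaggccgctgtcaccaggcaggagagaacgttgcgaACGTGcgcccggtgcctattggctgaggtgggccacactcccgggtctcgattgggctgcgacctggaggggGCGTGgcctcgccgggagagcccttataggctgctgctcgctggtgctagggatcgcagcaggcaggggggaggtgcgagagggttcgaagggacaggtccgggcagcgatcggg
Ldha: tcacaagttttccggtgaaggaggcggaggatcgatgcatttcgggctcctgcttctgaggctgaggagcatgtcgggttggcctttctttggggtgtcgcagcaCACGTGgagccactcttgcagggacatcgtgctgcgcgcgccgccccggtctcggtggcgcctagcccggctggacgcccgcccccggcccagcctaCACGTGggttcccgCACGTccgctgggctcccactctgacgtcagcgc
The Slc2a1 window holds GCGTG on the other strand, starting 61 bases before the start, and ACGTG on the gene's strand, starting 36 bases before it. The Bnip3 window holds 5 matches within 117 bases of the start, and the Ankrd37 window has its nearest match 6 bases before the start.

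Across the glycolysis and hypoxia genes, signals separated VEGFD from Apex arrays most clearly for the glucose transporter Slc2a1, while HIF targets differed mainly between the 2 VEGFD arrays. No member passed the test. In the limma fit over all 11677 tested genes (Benjamini-Hochberg adjusted p under 0.05) 0 genes were called, a background of 0%, and the members' adjusted p ran from 0.641 to 0.995. At an unadjusted p under 0.05 there was 1 of 30 members, Slc2a1, against a background of 5.7%. Differences below are VEGFD minus Apex in log2(signal + 16) with the standard error (SE) of that fit, 2 arrays per group, and dim genes are understated on this scale. Of the 30 members, 10 had a difference above 0 and 20 below 0, where the background was 46.4% above and 53.6% below. With arrays centred on their medians, 16 members and 59.3% of all tested genes were above 0, so small differences have no settled sign. Both VEGFD arrays lay above both Apex arrays for 5 members (background 16.6%), and below them for 4 (background 21.8%), so 9 of 30 had no overlap, a share below that of all genes.

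**Figure D1:**
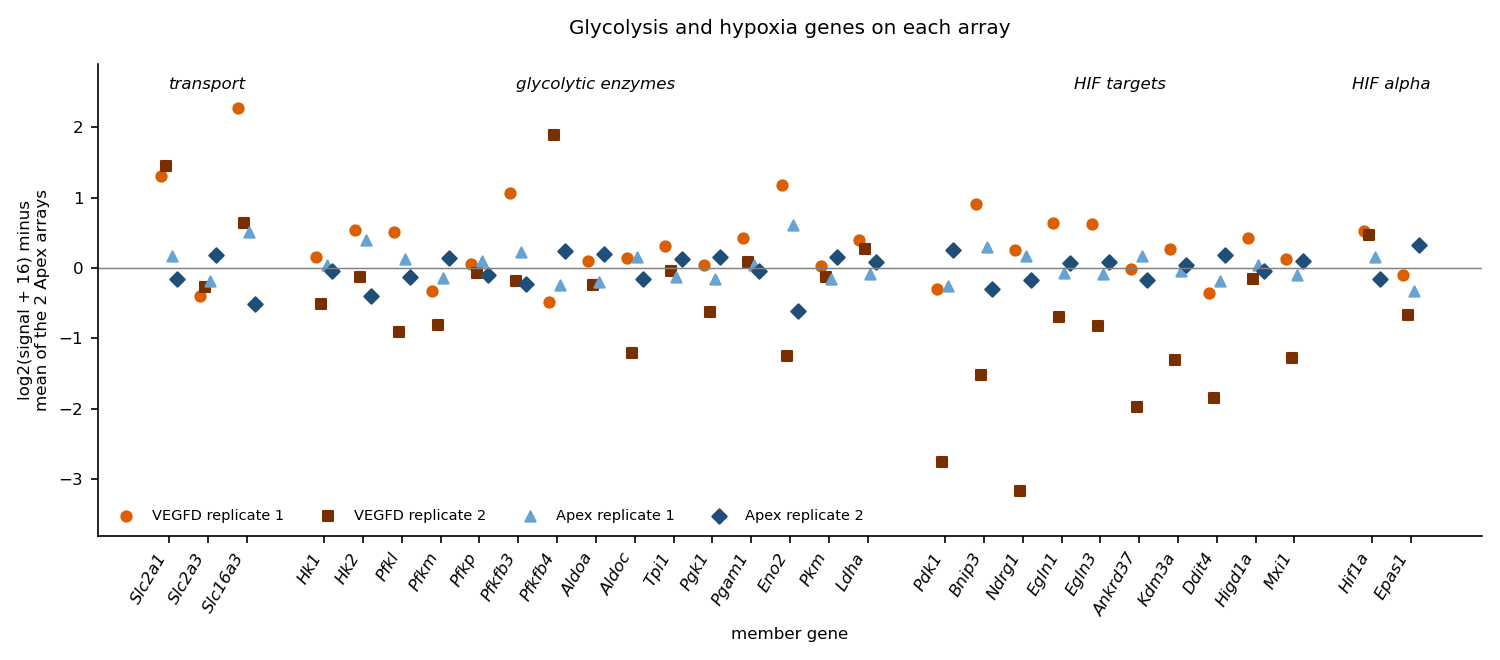
Each point is 1 array's log2(signal + 16) for a tested member, minus the mean of that gene's 2 Apex arrays (y axis, log2 units), with members along the x axis by role. Slc2a1 sits above 1 on both VEGFD arrays, and all 10 HIF targets have their lowest point on VEGFD replicate 2.

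Slc2a1 encodes GLUT1, the basal glucose transporter of many cells and a HIF target. Its gene lies at chr4:119108745-119137330 of GRCm38.p6. The signal was 1878 and 2086 in VEGFD replicates 1 and 2, against 844 and 669.9 in Apex replicates 1 and 2. Both VEGFD arrays were above both Apex arrays, and the spread within each group was small beside the gap. The difference was 1.38 ± 0.23 (SE), a 2.60-fold ratio on the pseudocount scale, with a limma adjusted p of 0.641. The other 2 Slc2a1 probe sets gave the same order of groups. Their signals were 923 and 1042 in VEGFD arrays against 421 and 370.1 in Apex arrays, and 559.9 and 659.8 against 228 and 205. The 3 probe sets measure the same RNA, so they are not replicates.

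Slc16a3 encodes MCT4, the exporter that carries lactate out of glycolytic cells. It had 169 and 43.7 in VEGFD arrays, against 38.3 and 10.9 in Apex arrays, and its value in Apex replicate 2 was below the filter signal. The groups did not overlap, but VEGFD replicate 2 stood close to Apex replicate 1. Its difference was 1.46 ± 0.64 (adjusted p = 0.823, limma), and 0.64 without VEGFD replicate 1, against 2.28 without VEGFD replicate 2. With a pseudocount of 1 it was 2.01, and with a pseudocount of 64 it was 0.86. Slc2a3, the gene of the high-affinity glucose transporter GLUT3, ran the other way, with 48.2 and 53.7 in VEGFD arrays against 58.5 and 79.5 in Apex arrays and a difference of -0.33 ± 0.28. Its groups overlapped once arrays were centred on their medians.

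The glycolytic enzymes were close to even between the groups. The median difference of the 15 tested was -0.039, beside -0.035 over all tested genes, and they ran from -0.57 to 0.70. None was 2-fold apart, where 559 of all 11677 tested genes were. The groups overlapped for 12 of the 15, and for 7187 of the 11677.

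At the top of the pathway, the hexokinases trap glucose in the cell. Hk1 had a difference of -0.18 ± 0.29, and Hk2, the inducible form, had 0.20 ± 0.38. Phosphofructokinase commits sugar to glycolysis, and its muscle-type gene Pfkm had 258 and 181 in VEGFD arrays, against 298 and 365 in Apex arrays. On the brightest probe sets, Pfkm was the 1 enzyme with both VEGFD arrays below both Apex arrays, at -0.57 ± 0.28. The liver-type gene Pfkl had -0.20 ± 0.49 and the platelet-type gene Pfkp -0.0053 ± 0.23, both with overlapping groups. A dimmer probe set above the filter did not overlap for Pfkl (-0.85) and for Pfkp (0.54).

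Pfkfb3 and Pfkfb4 encode enzymes that set the level of a sugar bisphosphate activating phosphofructokinase. Pfkfb3 had 178 and 65.9 in VEGFD arrays, against 92.7 and 63.2 in Apex arrays, with its single high value in VEGFD replicate 1. Pfkfb4 had 173 and 965 in VEGFD arrays, against 209 and 296 in Apex arrays. The 2 VEGFD arrays thus lay on either side of the Apex arrays for Pfkfb4, and its difference was 0.70 ± 0.77. Without VEGFD replicate 1 the Pfkfb4 difference was 1.89, and without VEGFD replicate 2 it was -0.49.

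Further down the pathway, Pgam1 (phosphoglycerate mutase) and Ldha (lactate dehydrogenase A) had both VEGFD arrays above both Apex arrays. Ldha had 5328 and 4883 in VEGFD arrays, against 3827 and 4305 in Apex arrays, a difference of 0.33 ± 0.20. Pgam1 had 3816 and 2998, against 2911 and 2752, a difference of 0.26 ± 0.22. These steps were small, at 1.26-fold and 1.19-fold. The other abundant enzymes were Aldoa (aldolase, -0.072 ± 0.25), Tpi1 (triosephosphate isomerase, 0.14 ± 0.23), Pgk1 (phosphoglycerate kinase, -0.30 ± 0.29) and Pkm (pyruvate kinase, -0.050 ± 0.22), all with overlapping groups on the brightest probe set. A dimmer probe set did not overlap for Aldoa (-0.45), Tpi1 (0.23) and Pgk1 (-0.65). The brightest probe sets of Aldoa, Tpi1 and Pgk1, like that of Ndrg1, carry the manufacturer's suffix for probes that can match other transcripts, so their values are less certain. Aldoc, the brain aldolase, had -0.53 ± 0.50, and Eno2, the neuronal enolase, had -0.039 ± 0.86 with 308 and 44.1 in VEGFD arrays against 203 and 77.7 in Apex arrays.

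**Figure D2:**
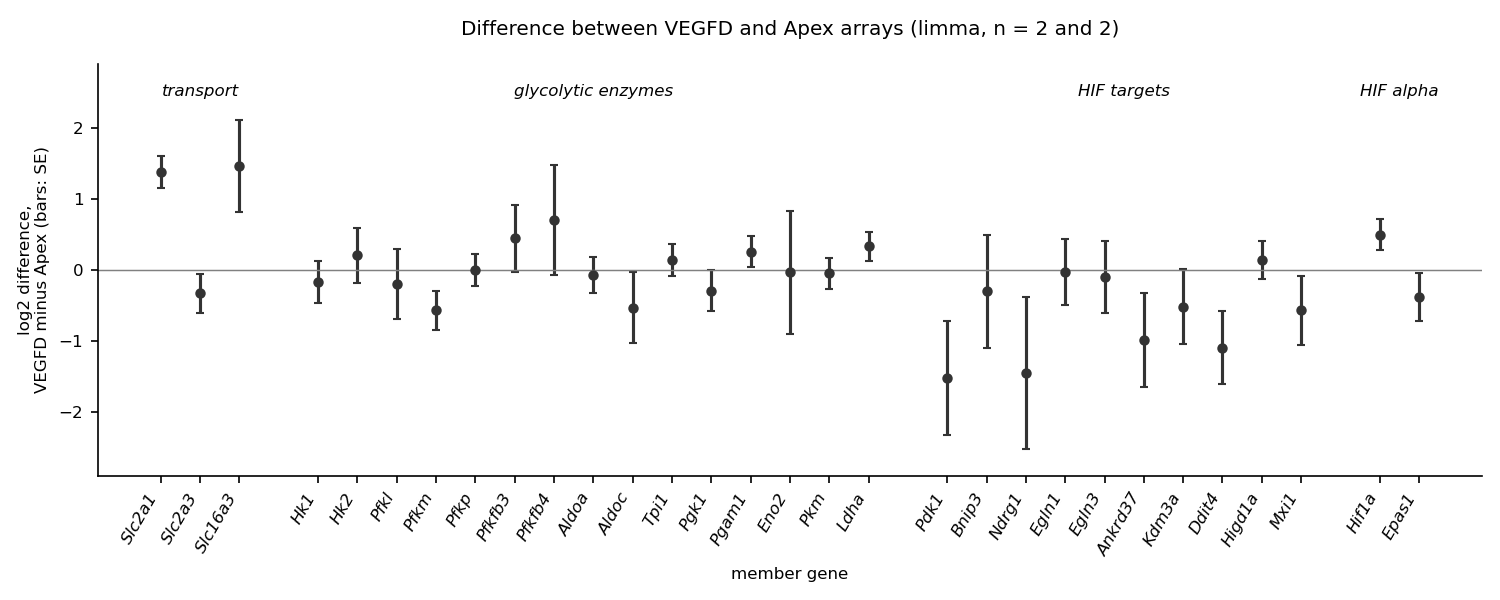
The points are differences in log2(signal + 16), VEGFD minus Apex, for each tested member, and the bars are the SE of the limma fit with 2 arrays per group. Slc2a1 (1.38) has the largest value relative to its bar, and the bars of several HIF targets are wide, as for Ndrg1 (1.07).

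The HIF targets outside glycolysis had the lowest signal on VEGFD replicate 2 in 10 of 10 tested genes, where this held for 35.5% of all tested genes. With arrays centred on their medians it held for 9 of 10, against 25.7% of all genes. In 7 of the 10 that array was at least 2-fold below each of the other 3, against a background of 4.97%. This way of counting was chosen after the values were seen, and it describes 1 array, not the VEGFD group. The median of the 10 genes, relative to the Apex mean, was 0.26 in VEGFD replicate 1 and -1.42 in VEGFD replicate 2, against -0.056 and 0.056 in the Apex arrays. Between groups their median difference was -0.54. Only Higd1a was above 0 (0.13 ± 0.27, but -0.18 with averaged probe sets), with Egln1 and Egln3 added under median centring. The groups overlapped for 8 of the 10, where they did for 7187 of all 11677 tested genes.

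Pdk1 encodes the kinase that shuts pyruvate out of mitochondrial oxidation. It had 325 and 46.1 in VEGFD arrays, against 334 and 485 in Apex arrays. VEGFD replicate 1 was nearly level with Apex replicate 1, and VEGFD replicate 2 was 7.04-fold below the lowest of the others. The difference was -1.53 ± 0.80 (adjusted p = 0.823, limma), and -0.85 with averaged probe sets. On the other 2 Pdk1 probe sets above the filter the gap was smaller and the groups overlapped. These had 81.8 and 47.0 in VEGFD arrays against 77.3 and 184 in Apex arrays, and 306 and 63.7 against 311 and 202. Ddit4 encodes an inhibitor of the growth kinase mTOR and had 675 and 231 in VEGFD arrays, against 761 and 991 in Apex arrays. Both VEGFD arrays were lower than both Apex arrays, and the difference was -1.10 ± 0.51 (adjusted p = 0.823, limma). Ddit4, and Pdk1 on its brightest probe set, were the HIF targets whose groups did not overlap. Among all tested genes, 21.8% had both VEGFD arrays below both Apex arrays.

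Ndrg1, a stress-induced gene of cell differentiation, had 1049.8 and 84.1 in VEGFD arrays, against 993 and 781 in Apex arrays. VEGFD replicate 1 was the highest array and VEGFD replicate 2 the lowest, 9.28-fold below the next. All 5 Ndrg1 probe sets and all 3 Pdk1 probe sets above the filter were lowest on VEGFD replicate 2. Over the 10 genes this held for 19 of 21 such probe sets, the exceptions being a second Egln3 and a dim Higd1a probe set.

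**Figure D3:**
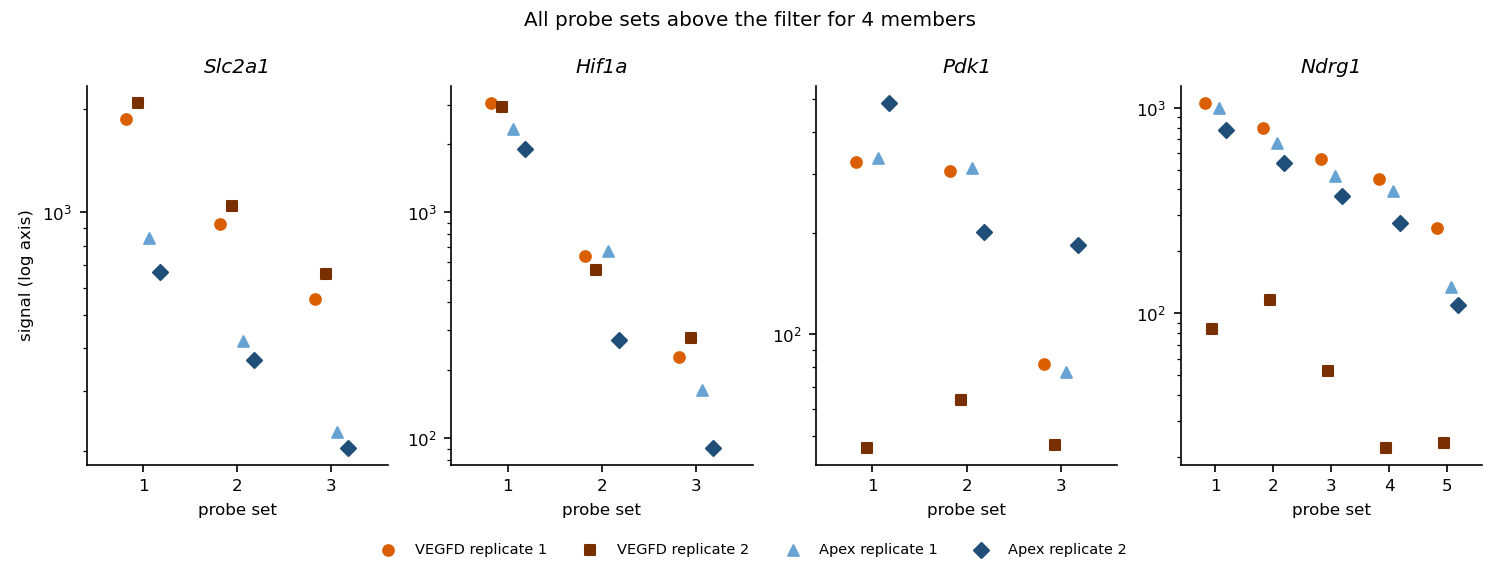
Signals (log axis) of every probe set above the filter for Slc2a1, Hif1a, Pdk1 and Ndrg1, numbered from the brightest, with 1 point per array. The 3 Slc2a1 probe sets have both VEGFD arrays on top, and the 3 Pdk1 and 5 Ndrg1 probe sets have VEGFD replicate 2 at the bottom.

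Bnip3, whose product marks mitochondria for removal, had 3020.2 and 546 in VEGFD arrays, against 1974 and 1292 in Apex arrays. The VEGFD arrays enclosed both Apex arrays, and the difference was -0.30 ± 0.79. Ankrd37, an ankyrin repeat gene, had 57.5 and 2.94 in VEGFD arrays, against 67.8 and 49.9 in Apex arrays, and its value in VEGFD replicate 2 was far below the filter signal. Its difference was -0.99 ± 0.66. Kdm3a, a histone demethylase gene, had 404 and 124, against 323 and 341, and Mxi1, which encodes a MYC antagonist, had 326 and 113, against 276 and 317. For Ankrd37, Kdm3a and Mxi1 VEGFD replicate 1 lay within or near the Apex range, and VEGFD replicate 2 lay below it.

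The feedback hydroxylase genes had smaller steps. Egln1 had 667 and 255 in VEGFD arrays, against 402 and 447 in Apex arrays, and Egln3 had 238 and 77.4, against 139.6 and 159.7. In both, VEGFD replicate 1 was the highest and VEGFD replicate 2 the lowest of the 4, so that the differences were -0.033 ± 0.46 and -0.10 ± 0.50. Higd1a, which encodes a mitochondrial survival protein, had 2542 and 1683 in VEGFD arrays against 1939.9 and 1836 in Apex arrays on its brightest probe set. Another Higd1a probe set gave 309 and 45.5 in VEGFD arrays against 253 and 216 in Apex arrays, so the probe sets disagree on how low VEGFD replicate 2 was. Car9, the gene of a cell surface carbonic anhydrase used as a hypoxia marker, had 51.5 and 4.45 in VEGFD arrays, against 19.6 and 3.40 in Apex arrays. It exceeded the filter signal in VEGFD replicate 1 alone and was not tested.

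With VEGFD replicate 2 left out, 7 of the 10 HIF targets were above 0 and 3 below, their median was 0.26, and 0 members were called (background 0.0343%). The 3 below 0 were then Pdk1 at -0.30, Ddit4 at -0.36 and Ankrd37 at -0.015. With VEGFD replicate 1 left out, all 10 were below 0, the median was -1.42, and 6 members were called (background 3.3%). Those were Slc2a1 (1.45, adjusted p = 0.0389) and Pfkfb4 (1.89, 0.0218) with more signal in VEGFD, and Pdk1 (-2.75, 0.00987), Ndrg1 (-3.16, 0.00594), Kdm3a (-1.31, 0.0495) and Ddit4 (-1.84, 0.0199) with less, by limma. These 6 calls rest on 1 VEGFD array and hold no spread between VEGFD arrays. With either Apex array left out 0 members were called, and the background was 0% in both cases.

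**Figure D4:**
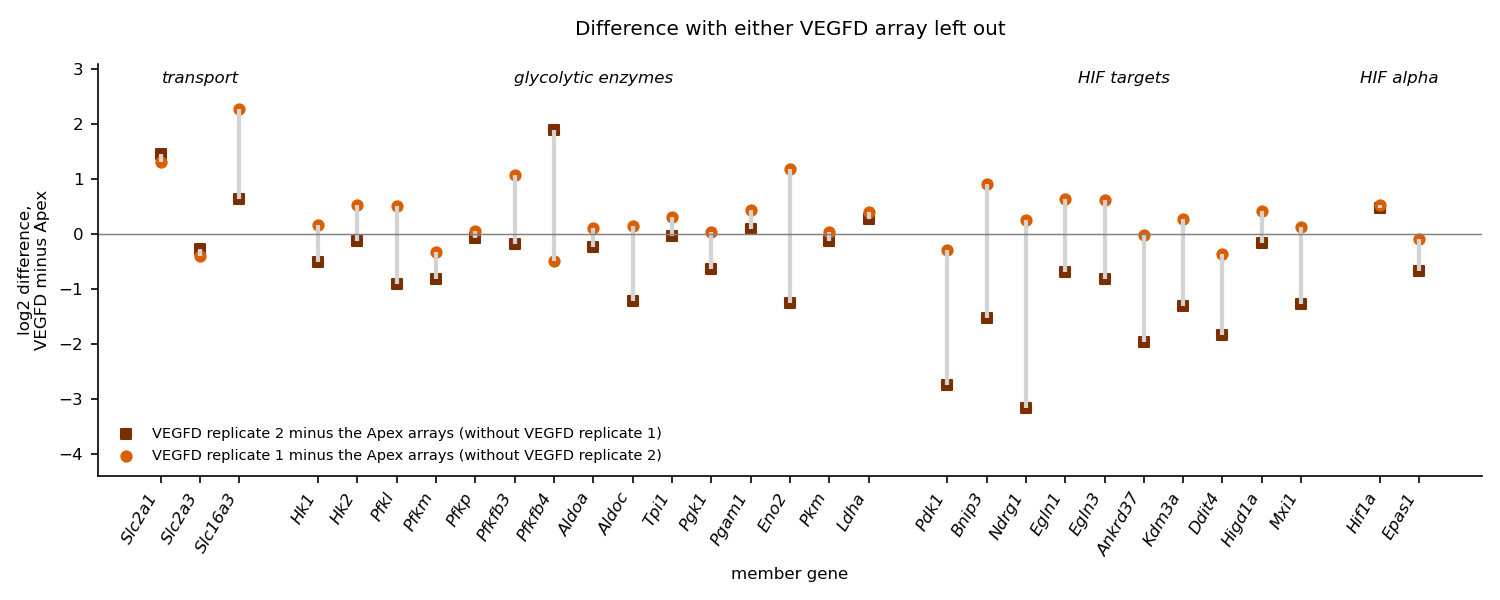
For each tested member, the log2 difference from the 2 Apex arrays is drawn for VEGFD replicate 1 (circles) and VEGFD replicate 2 (squares), which are the values with the other VEGFD array left out. The 2 values nearly coincide for Slc2a1, at 1.30 and 1.45, and lie far apart for Ndrg1, at 0.25 and -3.16.

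VEGFD replicate 2 was not at the bottom for all members. It was the lowest of the 4 arrays for 18 of 30 members (background 35.5%), and the highest for 2, Slc2a1 and Pfkfb4 (background 29.6%). Among glycolytic enzymes it was lowest for 7 of 15, a share near that background. It was at least 2-fold below each other array for 1 of them, Aldoc (background 4.97%). Aldoc was dim, with 52.2 and 10.6 in VEGFD arrays against 52.5 and 39.5 in Apex arrays, so its value there was below the filter signal.

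Other markers also set VEGFD replicate 2 apart. The 3 measured of 4 proliferation markers, Mki67, Top2a and Cdk1, summed to 218 and 2731 in VEGFD replicates 1 and 2, against 417 and 689 in Apex replicates 1 and 2, and all 3 were highest on VEGFD replicate 2. The 6 smooth muscle and pericyte markers summed to 7179 and 16947 in VEGFD arrays, against 4443 and 5161 in Apex arrays. The largest part was Acta2, at 4840 and 8802 against 3525 and 4096. Tagln had 1632 and 5553 against 454 and 746, and Myh11 was at most 19.2 on any array. Of the 5 tested markers of this list, 4 were highest on VEGFD replicate 2. Rgs5 went the other way, with its lowest signal on that array and a difference of -0.34 ± 0.37. The 5 skeletal muscle markers summed to 128 and 782 in VEGFD arrays, against 128 and 204 in Apex arrays. Most of the 782 was Acta1, at 76.1 and 724 against 54.7 and 136. Ckm was lowest on VEGFD replicate 2, with 36.6 and 33.5 against 37.5 and 50.8. Myh4, Mb and Pygm lay below the filter signal throughout. The part of these markers in the HIF target values was not tested. Pan-endothelial signal was high in Apex replicate 2, and its part in the Slc2a1 values was not tested either. With Apex replicate 2 left out the Slc2a1 difference was 1.21.

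**Figure D5:**
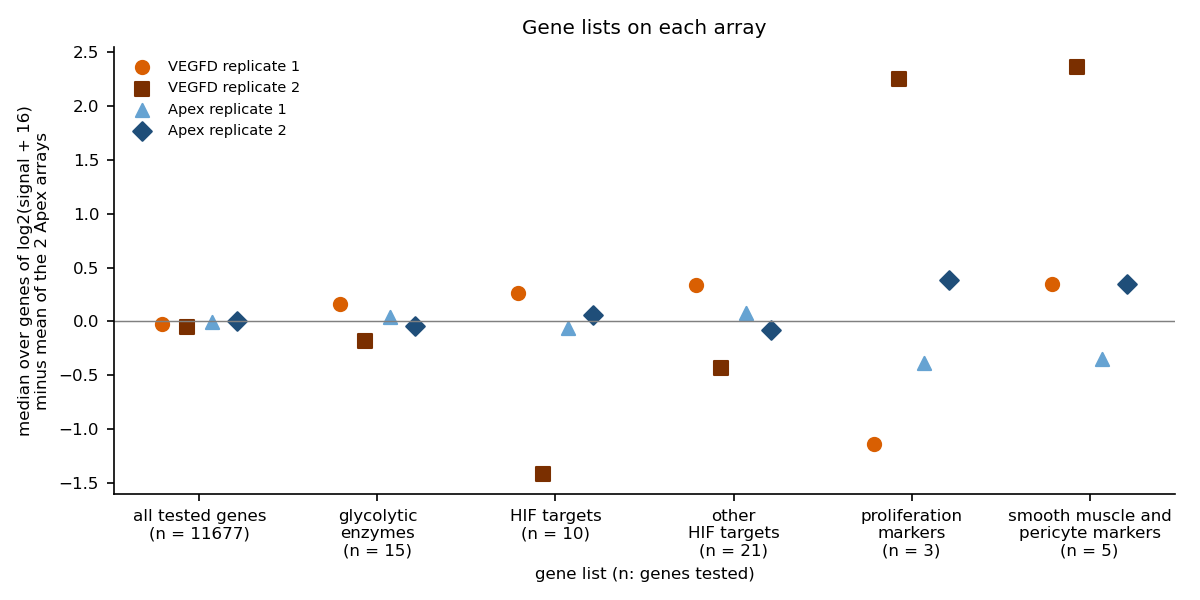
Each point is the median over a gene list, on 1 array, of log2(signal + 16) minus the mean of the 2 Apex arrays, with the number of tested genes under each list. On VEGFD replicate 2 the HIF targets lie at -1.42 and the proliferation and smooth muscle lists at 2.25 and 2.36.

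The HIF alpha subunits differed in their order. Hif1a, the subunit found in most cells, had 3040.0 and 2921 in VEGFD arrays, against 2349 and 1902 in Apex arrays. Both VEGFD arrays were above both Apex arrays, by 0.49 ± 0.22 (adjusted p = 0.823, limma), and its other 2 probe sets above the filter had differences of 0.45 and 0.95. The groups overlapped on the one at 0.45, with 638 and 558 in VEGFD arrays against 676 and 273 in Apex arrays. Epas1, the HIF subunit prominent in endothelium, had 579 and 384 in VEGFD arrays, against 491 and 788 in Apex arrays, an overlapping difference of -0.39 ± 0.34, with its lowest signal on VEGFD replicate 2. These are RNA signals, and the protein of both subunits is governed mainly by its stability.

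Genes around the pathway gave 0 calls in either direction. The partner and regulator genes of HIF had 2 of 6 above 0 and a median of -0.21. Arnt, the shared partner subunit, was at 0.43 ± 0.33, and Vhl, whose product has hydroxylated HIF alpha destroyed, was at -0.29 ± 0.23. A further 21 tested HIF targets had 10 above 0 and a median of -0.012. VEGFD replicate 2 was lowest for 14 of the 21 (background 35.5%) and highest for 4 (background 29.6%). Those with the smallest p were Bhlhe40 (0.47 ± 0.23) and Cited2 (0.52 ± 0.26), which encode transcriptional regulators, and Lox (0.33 ± 0.20), which encodes a collagen cross-linking enzyme.

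Among 11 other tested genes of glucose and lactate handling, 8 were above 0 with a median of 0.041. Fbp1, which encodes an enzyme of the reverse pathway to glucose, had 19.5 and 17.7 in VEGFD arrays, against 42.1 and 46.95 in Apex arrays, and a difference of -0.81 ± 0.27, with its VEGFD signals below the filter signal. Of 9 tested genes for the entry of pyruvate into mitochondria, 4 were above 0, with a median of -0.13. Dlat, a subunit of pyruvate dehydrogenase, had 616 and 574 in VEGFD arrays, against 410.1 and 378 in Apex arrays, a difference of 0.58 ± 0.22. Pdk3, another kinase of that complex, had 362 and 425 in VEGFD arrays, against 281 and 147 in Apex arrays, a difference of 0.89 ± 0.35. Neither gene passed (adjusted p = 0.823, limma). Both VEGFD arrays lay above both Apex arrays for 2 of the 9 genes, Dlat and Pdk3 (background 16.6%). They lay below them for 1 of the 9 (background 21.8%). VEGFD replicate 2 was the lowest array for 4 of these 9 genes (background 35.5%). Pdk2 and Pdk4, further kinases of the complex, were among them, like Pdk1, and were named after their values were seen. Pdk3 had its highest signal on that array. Pdk4 had 2001 and 225 in VEGFD arrays, against 2024 and 1390 in Apex arrays, a difference of -1.28 ± 0.97, and Pdk2 had 90.4 and 40.3, against 72.9 and 77.9, a difference of -0.24 ± 0.38.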

How the data were processed

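Total RNA of 4 sorted samples was labelled with biotin by the Affymetrix one-cycle procedure and hybridised to mouse arrays, per the labels' protocols. The authors' deposited table holds intensity on a linear scale for 45101 probe sets (64 of them controls), from 0.0265 to 15171. The sources used here do not name the algorithm behind it, and no detection calls were used. After trimming 2% of the deposited intensity at each end, every array had a mean of 150. Median signals were 26.3 and 23.8 in VEGFD replicates 1 and 2, and 26.97 and 30.4 in Apex replicates 1 and 2.

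The platform annotation gave 1 symbol to 34945 probe sets and several to 932, and 9160 were unnamed here. Each gene took its probe set with the highest mean signal. Values were log2(signal + 16), and genes with a mean at or above the probe set median (5.37) were tested with limma 3.58.1 in R 4.3.3 (lmFit, eBayes with intensity trend, two-sided, Benjamini-Hochberg). An exact permutation test of 2 against 2 arrays cannot go below p = 0.333. The fit was tested on simulated data first, where it called 0.2% of 2-fold and 29.5% of 4-fold changes. The lack of calls here therefore does not show that signals were equal. The number of arrays limits the precision.

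All 33 genes of the list were named. Full signals were due for the 4 members at least 1.5-fold apart without overlap and the HIF subunits, and up to 3 genes with the smallest p from each further list. Signals of other members were added after their values were seen. The members and lists were chosen with earlier results of these data known. A correlation between members was not computed over 4 arrays. Alternatives covered pseudocount, filter, scaling, choice of probe set, variance trend, replicate block and leaving out each array.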

Additional observations from a re-analysis of the deposited data

How the results depend on the processing

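No gene was called under the alternatives that kept all 4 arrays, except with the replicate block, where 6 genes passed, none of them a member (smallest adjusted p of a member 0.233, limma). The labels do not say that equal replicate numbers pair arrays. The deviations of same-numbered arrays correlated at 0.20 across genes. With 1 array left out the count of called genes ran from 0 to 386 and that of called members from 0 to 6. The highest counts came without VEGFD replicate 1, and 4 genes were called without VEGFD replicate 2. A lone array was assumed to vary like the others. The median difference of the transport genes was 0.86 with a pseudocount of 64 and ran from 0.64 to 1.54 with 1 array left out, and that of the HIF targets ran from -1.42 to 0.26. Median centring moved the median over all tested genes to 0.088 from -0.035, and signs near 0 turned with it.

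Of 292 member values under alternatives that kept all arrays, 12 turned sign. Over these alternatives and the fits with 1 array left out, 11 of the 30 tested members kept their sign throughout. Of 17 tested members with 2 or more probe sets above the filter, 8 had probe sets of both signs. With median centring Pfkp was 0.12, Aldoa 0.051, Eno2 0.084, Pkm 0.072, Egln1 0.089 and Egln3 0.021. With averaged probe sets Hk1 was 0.084, Pfkp 0.073, Egln1 0.14 and Higd1a -0.18. Eno2 was 0.043 with a pseudocount of 64 and 0.032 with quantile normalization. With 1 array left out, ranges that crossed 0 were -0.51 to 0.16 for Hk1, -0.20 to 0.60 for Hk2, -0.91 to 0.51 for Pfkl, -0.11 to 0.10 for Pfkp, -0.18 to 1.07 for Pfkfb3, -0.49 to 1.89 for Pfkfb4, -0.28 to 0.13 for Aldoa, -1.21 to 0.15 for Aldoc, -0.039 to 0.31 for Tpi1, -0.63 to 0.035 for Pgk1, -1.25 to 1.18 for Eno2 and -0.21 to 0.11 for Pkm. Among HIF targets they were -1.52 to 0.91 for Bnip3, -3.16 to 0.25 for Ndrg1, -0.70 to 0.63 for Egln1, -0.82 to 0.62 for Egln3, -1.31 to 0.27 for Kdm3a, -0.16 to 0.43 for Higd1a and -1.28 to 0.13 for Mxi1. Slc2a1 ran from 1.21 to 1.54, Pdk1 from -2.75 to -0.30, Ddit4 from -1.84 to -0.36 and Ankrd37 from -1.97 to -0.015, where the last 3 were nearest 0 without VEGFD replicate 2. The cause of these turns was not tested.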
